A study of Mus musculus with 10 samples.

Results

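The genes described here are 8 transcription factors that mark the diencephalon or the thalamic eminence: *Irx1*, *Irx2*, *Irx3*, *Irx5*, *Gbx2*, *Barhl2*, *Nkx2-2* and *Olig3*. They were given by name and were all found, 8 of the 56748 gene identifiers in the files. Of these, 5 had enough counts to be tested, among 18163 tested genes. The question addressed is how much of these transcripts was present in mouse cortex at E12.5 and how that differed between Emx2 KO and wild type. RNA-seq read counts per gene came from 5 libraries labelled Emx2 KO and 5 labelled wild type, all from cortex at E12.5. Emx2, the gene named in the KO label, encodes a homeobox regulator of the dorsal telencephalon. The labels used here name neither the allele, the strain nor any treatment. Nor do they say whether the libraries are separate embryos. P-values therefore reflect only how far these libraries differ from each other, part of which may be technical.

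The diencephalon lies behind the telencephalon and gives rise to the thalamus, prethalamus, habenula and pretectum. The zona limitans, a strip of cells that secretes Sonic hedgehog, divides prethalamus from thalamus, and the thalamic eminence lies where diencephalon and telencephalon meet. The Iroquois genes (*Irx*) are homeobox factors expressed caudal to the zona limitans, *Olig3* and *Gbx2* mark thalamic progenitors and thalamic neurons, and *Nkx2-2* is a hedgehog target beside the zona limitans. In a bulk sample, fewer cells of a type and less RNA per cell cannot be told apart.

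Total counts ran from 9720840 to 35674113 per library, in 5 large libraries (at least 24856930) and 5 small ones (at most 14700549). A code ends each sample title, and within each of the 3 codes the KO and wild-type libraries were of opposite size class. Within a size class no code therefore held both genotypes. Fits of a single size class cannot separate genotype from title code, and fits of a single code cannot separate it from size class. *Emx2* itself had a mean of 185 ± 12.8 CPM (counts scaled to a common library total; SD, n = 5) in wild type and 123 ± 21.1 CPM in KO (SD, n = 5), with no overlap between groups. Its log2 fold change, KO over wild type, was -0.59 ± 0.10 (SE; edgeR adjusted p = 0.00176), so its transcripts were lower but not absent. Defining cortical markers were present in every library, with a summed level of 2714 to 3079 CPM in wild type and 3107 to 3648 CPM in KO.

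Of the 5 tested genes, *Irx5* and *Olig3* were lower in KO, *Barhl2* was higher, and *Irx3* and *Gbx2* did not pass the test (edgeR quasi-likelihood, adjusted p under 0.05). Over all genes tested, 22.4% passed, 13.1% as higher and 9.37% as lower. *Irx5* was 7.50-fold lower in a fit where it passed the expression filter only through the wild-type group, its KO libraries having 1 to 7 counts. It passed in the 24 alternatives that tested it, and a filter of at least 1 CPM in 5 libraries removed it. *Barhl2* was 2.22-fold higher, and the *Olig3* difference rested on 2 wild-type libraries. *Irx1*, *Irx2* and *Nkx2-2* had too few counts for the filter. The groups did not overlap for *Irx5* alone among the 5 tested genes, against 16.7% of all genes tested.

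**Figure D1:**
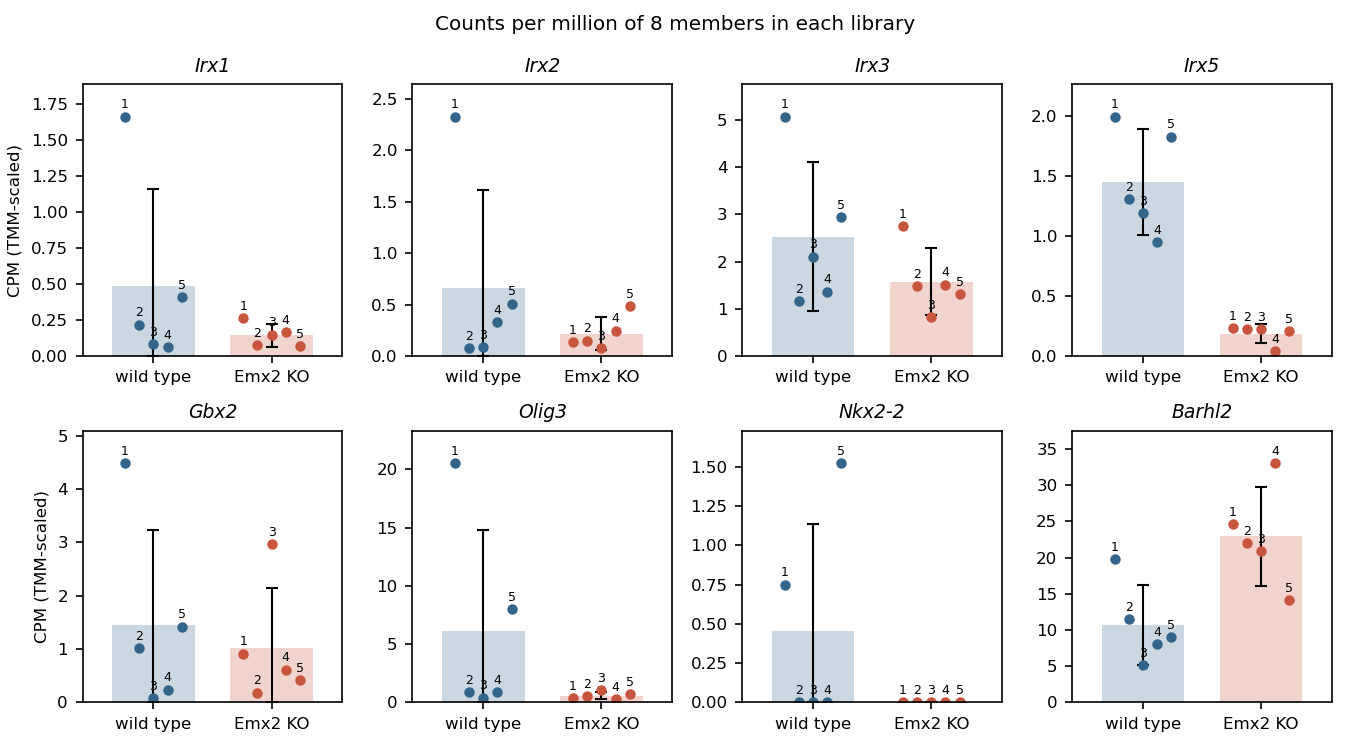
Level of the 8 genes in each library, in CPM (vertical axes, 1 panel a gene, each with its own scale), for wild type and Emx2 KO. Points are libraries with their replicate number, bars are means and error bars are SD over 5 libraries, with the lower end stopped at 0. *Irx5* points separate by genotype, *Barhl2* points are mostly higher in KO, and wild-type libraries 1 and 5 carry the *Olig3* and *Nkx2-2* signal.

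*Irx5* (ENSMUSG00000031737, chromosome 8) encodes an Iroquois homeobox factor. Wild-type libraries 1 to 5 had 24, 18, 43, 32 and 18 counts, or 2.00, 1.31, 1.19, 0.949 and 1.83 CPM. KO libraries 1 to 5 had 7, 6, 3, 1 and 3 counts, or 0.229, 0.223, 0.222, 0.0408 and 0.207 CPM. Every wild-type library was above every KO library. The mean fell from 1.45 ± 0.442 to 0.184 ± 0.0807 CPM (SD, n = 5 each), and the log2 fold change was -2.91 ± 0.37 (SE; edgeR adjusted p = 0.00023). No KO library reached 10 counts, so the gene passed the filter only through the wild-type group. KO libraries 3, 4 and 5 were at or under 3 counts, the limit that a count of 0 allows. The log2 difference stayed between -3.05 and -2.30 over 24 alternatives and passed in each, including the 5 large libraries (-2.63) and the 5 small ones (-2.93). In each size class, however, the genotypes came from different title codes.

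*Crnde*, a noncoding gene that neighbours *Irx5*, was also lower in KO. Wild-type libraries 1 to 5 had 2.74, 2.10, 1.66, 1.25 and 2.34 CPM and KO libraries 1 to 5 had 0.852, 0.520, 0.889, 0.449 and 0.484 CPM, again without overlap. The mean fell from 2.02 ± 0.583 to 0.639 ± 0.213 CPM (SD, n = 5 each), and the log2 fold change was -1.62 ± 0.29 (SE; edgeR adjusted p = 0.00182). The sources used here do not say how reads of overlapping genes were assigned. *Irx3os*, the antisense gene named for *Irx3*, had 1 to 7 counts per library and was not tested.

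*Irx3* (ENSMUSG00000031734, chromosome 8), the Iroquois gene with the most reads here, did not follow *Irx5*. Wild-type libraries 1 to 5 had 5.07, 1.16, 2.10, 1.36 and 2.94 CPM, and KO libraries 1 to 5 had 2.75, 1.48, 0.815, 1.51 and 1.31 CPM. The ranges overlapped, with wild-type libraries 1 and 5 highest. The mean was 2.53 ± 1.59 CPM in wild type and 1.58 ± 0.715 CPM in KO (SD, n = 5 each), and the log2 fold change was -0.59 ± 0.41 (SE; edgeR adjusted p = 0.356), and the sign changed in the large libraries alone (0.15). *Irx1* (ENSMUSG00000060969) and *Irx2* (ENSMUSG00000001504), neighbours on chromosome 13, had 8, 2, 2, 4 and 1 and 4, 4, 1, 6 and 7 counts in KO libraries 1 to 5. *Irx1* had 20, 3, 3, 2 and 4 counts and *Irx2* 28, 1, 3, 11 and 5 counts in wild-type libraries 1 to 5. Both were highest in wild-type library 1 (1.66 and 2.33 CPM) and otherwise overlapped between genotypes. Two-sided exact permutation tests of CPM gave p = 0.310 for *Irx1* and 0.389 for *Irx2*, where the smallest p that 5 against 5 libraries allow is 0.00794.

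*Barhl2* (ENSMUSG00000034384, chromosome 5) encodes a BarH-like homeobox factor of the diencephalon and was the most abundant of the 8 genes. KO libraries 1 to 5 had 24.6, 22.0, 20.9, 33.0 and 14.1 CPM, and wild-type libraries 1 to 5 had 19.8, 11.5, 5.17, 8.06 and 9.04 CPM. The groups overlapped through 1 pair: wild-type library 1 lay above KO library 5. The mean rose from 10.7 ± 5.56 to 22.9 ± 6.86 CPM (SD, n = 5 each), and the log2 fold change was 1.15 ± 0.32 (SE; edgeR adjusted p = 0.022). With robust dispersion estimation the adjusted p was 0.0386. The difference was 2.00 in the large libraries alone and 0.37 in the small ones, where it did not pass. It passed in 20 of 25 alternatives (adjusted p = 0.0018 to 0.572), among them 7 of 10 that left out 1 library. Without KO library 4 it was 0.97 (adjusted p = 0.0592), without wild-type library 4 it was 1.05 (0.0608) and without wild-type library 5 it was 1.10 (0.0513).

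*Olig3* (ENSMUSG00000045591, chromosome 10) encodes a basic helix-loop-helix factor of thalamic progenitors. Wild-type libraries 1 to 5 had 247, 12, 15, 29 and 79 counts, or 20.5, 0.870, 0.415, 0.860 and 8.02 CPM. KO libraries 1 to 5 had 12, 14, 14, 7 and 10 counts, or 0.393, 0.520, 1.04, 0.286 and 0.691 CPM. Wild-type libraries 1 and 5 stood far above all others and held 85.3% of the wild-type counts, while wild-type libraries 2, 3 and 4 overlapped the KO libraries. The mean was 6.14 ± 8.65 CPM in wild type and 0.585 ± 0.294 CPM in KO (SD, n = 5 each), and the log2 fold change was -3.41 ± 1.05 (SE; edgeR adjusted p = 0.0356). The call did not hold with robust dispersion estimation (adjusted p = 0.0681), nor in 7 of the 10 fits that left out 1 library, and it passed in 8 of 24 alternatives (adjusted p = 0.00476 to 0.693). It was also lost with the title code as a block (log2 fold change -2.96, adjusted p = 0.0946) and with the size class as a block (-2.22, adjusted p = 0.0938). The log2 difference was -2.04 without wild-type library 1 (adjusted p = 0.121). Without wild-type libraries 1 and 5, an alternative chosen after their values were seen, the log2 fold change was -0.33 (adjusted p = 0.693).

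*Nkx2-2* (ENSMUSG00000027434, chromosome 2), a hedgehog-responsive homeobox gene, had 9 counts in wild-type library 1 and 15 in wild-type library 5, or 0.748 and 1.52 CPM. The other 8 libraries had 0 counts, where 3 counts, the limit a count of 0 allows, is 0.0841 to 0.221 CPM of unscaled library totals. Such limits cover counting error only. A two-sided exact permutation test of CPM gave p = 0.444. *Nkx2-2os* had 0 counts in all 10 libraries.

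*Gbx2* (ENSMUSG00000034486, chromosome 1) encodes a homeobox factor of thalamic neurons and varied within both genotypes. Wild-type libraries 1 to 5 had 4.49, 1.02, 0.0829, 0.237 and 1.42 CPM, and KO libraries 1 to 5 had 0.917, 0.186, 2.96, 0.613 and 0.415 CPM. The ranges overlapped widely, with wild-type library 1 and KO library 3 highest. The log2 fold change was -0.43 ± 0.94 (SE; edgeR adjusted p = 0.806), and its sign depended on the libraries used, at 1.85 in the large libraries and 0.78 without wild-type library 1. The difference of its genotype effect between 2 title codes was -5.59 on the log2 scale (edgeR interaction, adjusted p = 0.311), and 1.5% of 18431 genes passed this test. The KO libraries were the large ones in 1 of these codes and the small ones in the other. This difference therefore cannot be told from one between large and small libraries.

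**Figure D2:**
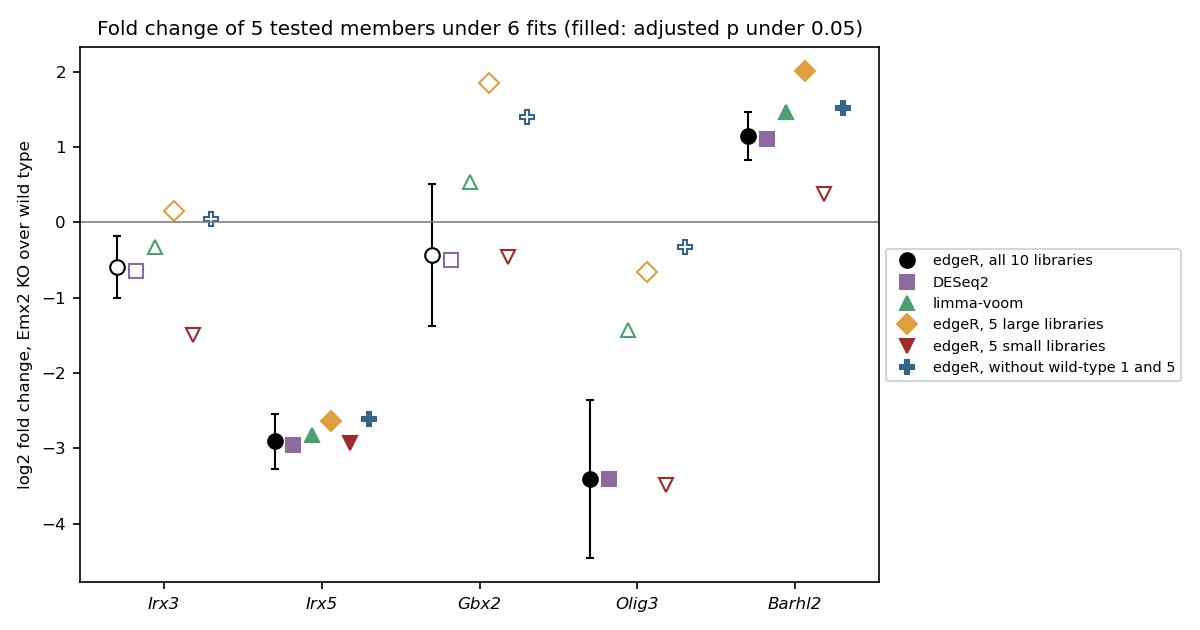
Log2 fold change, KO over wild type (vertical axis), of the 5 tested genes (horizontal axis) under 6 fits. Filled symbols have an adjusted p under 0.05, and error bars on the fit of all 10 libraries are SE. *Irx5* stayed between -2.96 and -2.61 and filled in all 6, *Barhl2* lay above 0 in all 6, and *Olig3* moved from -3.41 to -0.33 without wild-type libraries 1 and 5.

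Per kilobase of exon, the median level in wild type ran from *Barhl2* at 3.91 CPM, through *Irx3* at 0.761, *Gbx2* at 0.466, *Olig3* at 0.420 and *Irx5* at 0.417, to *Irx2* at 0.0994 and *Irx1* at 0.0830, with *Nkx2-2* at 0. The middle 4 genes overlapped in their ranges over wild-type libraries. In KO the median was 9.50 CPM per kilobase for *Barhl2* and 0.0711 for *Irx5*, which lay just above *Irx1* at 0.0566.

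High values recurred in wild-type libraries 1 and 5. For 6 of the 8 genes, *Irx1*, *Irx2*, *Irx3*, *Irx5*, *Nkx2-2* and *Olig3*, these were the 2 highest of all 10 libraries. Without them *Irx5* was still lower in KO, by a log2 fold change of -2.61 (edgeR adjusted p = 0.00215). Among related genes the same libraries were highest for *Tcf7l2*, a Wnt-pathway factor of the thalamus, at 53.4 and 40.1 CPM. It had at most 22.0 CPM in wild-type libraries 2 to 4 and 23.5 to 37.2 CPM in KO. With a criterion chosen after these values were seen, at least 1 CPM and at least 4-fold above the highest of the other wild-type libraries in both, 5 genes qualified, namely *Olig3*, *Shox2*, *Foxb1*, *Creg2* and *Gm7729*. KO libraries were not part of this criterion. *Creg2* had 4.52 to 7.03 CPM in KO against 2.41 and 2.13 CPM in wild-type libraries 1 and 5. *Gm7729* had 5.60 to 13.2 CPM in KO against 9.64 and 8.93 CPM. These 2 genes were low in wild-type libraries 2 to 4 rather than high in libraries 1 and 5 alone. *Shox2*, a homeobox gene of the thalamus, had 11.6 and 5.28 CPM in wild-type libraries 1 and 5. It had at most 0.249 CPM in wild-type libraries 2 to 4 and 0.483 to 0.967 CPM in KO. Its log2 fold change was -2.14 over all libraries (edgeR adjusted p = 0.174) and 1.70 without wild-type libraries 1 and 5 (0.0115). *Shox2* was picked for its high values in these 2 libraries. Leaving them out lowers its wild-type level by choice, so that fit cannot test a rise in KO. Both libraries are small and of different title codes. Meningeal and mesenchymal markers summed to 1363 CPM in wild-type library 1 and 1028 CPM in library 5, the highest and lowest of the wild-type group. The part that tissue taken with the cortex had in these levels was not tested.

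**Figure D3:**
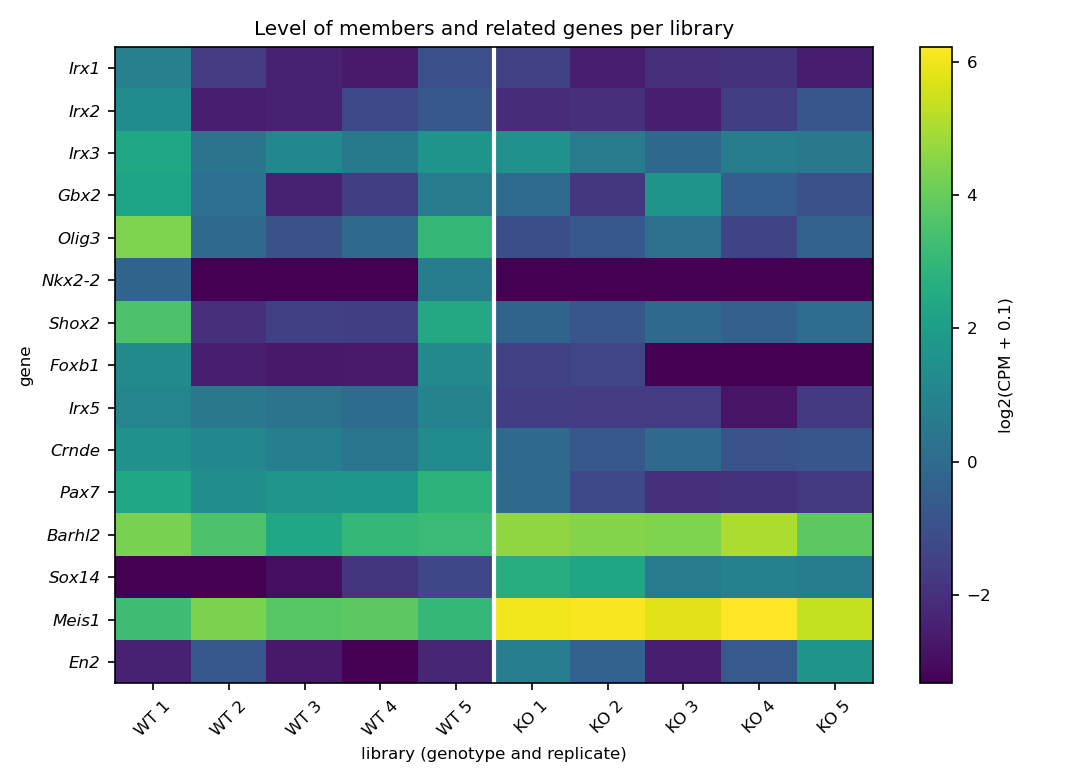
Level per library as log2(CPM + 0.1) (colour), with genes in rows and the 5 wild-type and 5 KO libraries in columns. *Olig3*, *Shox2* and *Foxb1* are high in wild-type libraries 1 and 5 alone, whereas *Irx5*, *Crnde* and *Pax7* are higher in all 5 wild-type libraries than in all 5 KO libraries.

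Genes in lists of diencephalic regions, which also hold some of the 8 genes, moved in both directions. Of 14 thalamic genes, all tested and including *Olig3* and *Gbx2*, 5 were higher and 4 lower in KO, *Olig3* among the lower. Their median log2 fold change was -0.01, the same as the median over all genes tested (-0.01). *Lhx2* and *Neurog2* of this list are also among the cortical markers, at means of 572 and 313 CPM in wild type. The list therefore does not mark thalamus alone. *Sox14*, a marker of rostral thalamic GABAergic cells, rose from 0.102 ± 0.135 to 3.11 ± 2.15 CPM (SD, n = 5 each; log2 fold change 4.98 ± 0.71, SE; edgeR adjusted p = 0.000482). Its wild-type libraries 1 to 5 had 0, 0, 1, 6 and 3 counts, so it passed the filter only through the KO group. *Neurog1* (0.98 ± 0.09) and *Foxp2* (0.80 ± 0.10) rose and *Prox1* (-0.98 ± 0.14) fell, each with its SE and an edgeR adjusted p under 0.05. *Tcf7l2* was at 0.02 ± 0.28 and did not pass. It was 0.61 in the large libraries alone (edgeR adjusted p = 0.015) and -0.31 in the small ones (0.698). Without wild-type libraries 1 and 5, 5 thalamic genes were higher and 2 lower. *Tcf7l2* was then among the higher ones (0.61, edgeR adjusted p = 0.018) and *Neurog2* was not (0.26, adjusted p = 0.188). The libraries left out were the highest for *Tcf7l2* and were chosen after their values were seen. Its call in this fit, and its place in the count, therefore follow in part from that choice. In this fit the calls over all genes also fell, from 2372 to 1734 higher and from 1702 of 18163 to 1108 of 19524 lower.

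Among 11 genes of the thalamic eminence, some of them shared with the cortex, the cortical hem and Cajal-Retzius cells, 4 were higher and 4 lower in KO (median 0.37). *Barhl2*, *Calb2*, *Tbr1* and *Zic1* were the higher ones. *Trp73*, which marks Cajal-Retzius cells, fell by 1.70 on the log2 scale and *Wnt8b*, a Wnt ligand of the cortical hem, by 1.69. *Lhx1* fell by 1.01 and *Lhx9* by 0.34, and without wild-type libraries 1 and 5 *Trp73* and *Wnt8b* passed as lower and *Lhx1* and *Lhx9* did not.

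Of 15 genes of pretectum and dorsal midbrain, 10 were tested, 5 were higher and 1 was lower in KO, with a median log2 fold change of 0.91. The higher ones were *Barhl2*, *Meis1*, *Pax5*, *En2* and *Bhlhe23*. *En2* and *Bhlhe23* had at most 7 and 8 counts in any wild-type library. Without wild-type libraries 1 and 5 *Bhlhe23* passed (edgeR adjusted p = 0.00351) and *En2* did not (0.106). The highest wild-type levels of *Bhlhe23* were in the libraries left out. *Meis1*, a homeobox cofactor also expressed in the subpallium, rose from 12.9 ± 4.74 to 61.4 ± 13.2 CPM (SD, n = 5 each; log2 fold change 2.23 ± 0.22, SE; edgeR adjusted p = 4.91e-05). *Pax7*, a paired-box gene of the dorsal midbrain, fell from 4.14 ± 1.88 to 0.347 ± 0.309 CPM (SD, n = 5 each; log2 fold change -3.38 ± 0.47, SE; edgeR adjusted p = 0.000385). KO libraries 1 to 5 had 27, 9, 2, 4 and 3 counts of it, so the size of its fold change rests on low counts. Of 10 genes of the zona limitans and hedgehog response, 6 were tested and *Barhl2* alone passed. *Shh* was at 0.78 ± 1.25 (SE) and did not pass. Of 5 tested habenular genes *Tac1* was higher and *Nr4a2* lower, and among rostral thalamic and midbrain GABAergic genes *Sox14* was higher and *Tal2* and *Lhx1* were lower. Genes shared by prethalamus and subpallium were higher in 9 of 13 tested cases and lower in 0, among them *Dlx2* (1.99 ± 0.41, SE) and *Gsx2* (1.86 ± 0.37, SE), with a median log2 fold change of 1.62. Without wild-type libraries 1 and 5, 5 of 14 tested genes were higher and the median was 1.40. Of 5 tested hypothalamic genes *Fezf1* was higher.

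**Figure D4:**
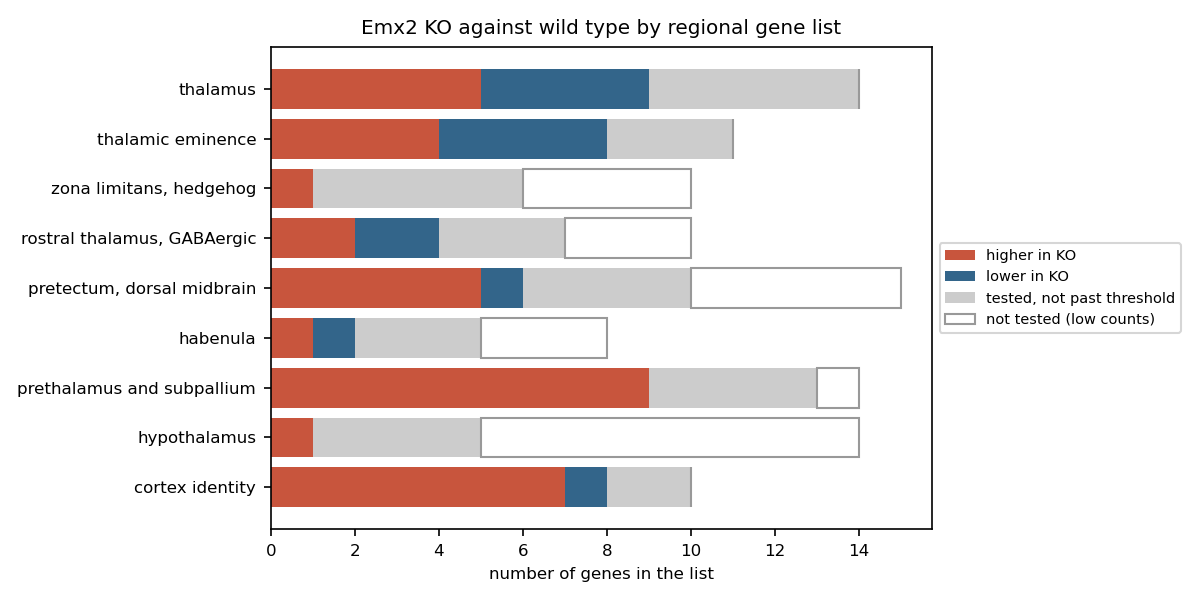
Number of genes in each regional list (horizontal axis) that were higher in KO, lower in KO, tested without passing, or not tested for low counts. Genes shared by prethalamus and subpallium were higher in 9 of 13 tested cases and lower in 0, while thalamic genes were split 5 to 4.

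Of the other members of these gene families, 6 of 12 were tested and 0 passed (edgeR), namely *Gbx1*, *Barhl1*, *Olig1*, *Olig2*, *Nkx2-1* and *Nkx2-3*, with a median log2 fold change of 1.17. Markers of endothelium, microglia and blood had 0 calls in 11, 10 and 10 tested genes. Surface epithelial markers summed to 91.1 to 103 CPM in wild type and 130 to 168 CPM in KO, where *Tfap2c* made up most of the sum. *Epcam*, a defining epithelial marker, was at 2.62 ± 0.804 and 2.63 ± 0.943 CPM (SD, n = 5 each). Of 6 tested epithelial genes *Tfap2c* was higher in KO and *Krt18* lower, and 4 did not pass. *Krt18* was at 3.04 CPM in wild type and 1.45 CPM in KO (log2 fold change -1.04 ± 0.26, SE; edgeR adjusted p = 0.0143). The part of these tissues in the results above was not tested.

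Promoter sequence was available for 6 of the 8 genes and for *Crnde*, as windows from 250 bases before to 50 bases after the RefSeq start (GRCm38.p6). Both strands were searched for TAATTA, a homeodomain core, and GACCACCCA, a GLI site. Neither was found in these windows, against 5.29% and 0.253% of 32851 promoters. The shorter TAAT, which TAATTA contains, was in 58% of promoters, in *Gbx2*, *Nkx2-2*, *Olig3* and *Crnde* but not in *Irx2*, *Irx3* or *Barhl2*. Shown are *Barhl2*, the gene that rose, and *Crnde*, the neighbour of *Irx5* that also fell, with TAAT on either strand in capitals (minus strand, chr5:106458117-106458416 and chr8:92356071-92356370):
Barhl2: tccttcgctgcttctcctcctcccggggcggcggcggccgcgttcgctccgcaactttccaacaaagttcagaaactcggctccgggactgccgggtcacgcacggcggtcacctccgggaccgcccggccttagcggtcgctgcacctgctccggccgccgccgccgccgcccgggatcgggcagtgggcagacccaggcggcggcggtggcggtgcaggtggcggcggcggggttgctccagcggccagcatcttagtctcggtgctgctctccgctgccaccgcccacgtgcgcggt
Crnde: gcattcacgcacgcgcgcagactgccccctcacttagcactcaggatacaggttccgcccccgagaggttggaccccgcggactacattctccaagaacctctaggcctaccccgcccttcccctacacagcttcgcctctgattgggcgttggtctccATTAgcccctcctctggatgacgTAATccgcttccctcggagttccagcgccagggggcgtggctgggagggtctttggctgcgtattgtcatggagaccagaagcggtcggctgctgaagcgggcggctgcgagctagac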

How the data were processed

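The deposited values are raw read counts per Ensembl gene, whole numbers that were not normalized, 1 column per library. Per the submitters' processing notes, the authors used featureCounts 1.6.3-p1 after alignment with STAR 2.7.8a and base calling with bcl2fastq 2.20. GRCm39 and rn6 are the builds given. Strand setting, other parameters and annotation are not given in the sources used here, so reads of overlapping genes cannot be told apart. Names, exon lengths and promoters came from GENCODE and RefSeq tables of GRCm38.p6, matched by gene identifier or symbol.

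Counts were filtered with filterByExpr (minimum count 10), scaled by TMM and tested with edgeR 4.0.16 (R 4.3.3), using the quasi-likelihood F test with default settings and genotype as the only term. P-values were two-sided and adjusted by Benjamini-Hochberg over 18163 genes, with a threshold of 0.05. CPM used TMM-scaled totals, except the limits for 0 counts, which used unscaled totals. SE came from the F statistic. The 3 genes that failed the filter had a two-sided exact permutation test of CPM. Libraries of a genotype differed beyond counting noise, with a chi-square of 9.06 to 23.7 per gene over 20 pairs. The fits were tested on simulated counts.

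The dispersion setting was not fixed in the plan beyond the tool. After first results had been seen, 8 combinations of 3 fit options were compared in search of a count of called genes known from an earlier analysis. They called 3975 to 4074 genes. Robust dispersion estimation gave that count (4039), was adopted for a time, and moved the adjusted p of *Olig3* from 0.0356 to 0.0681, which ended its call. The default fit, which matches the plan as written, was then restored (4074 genes), and the robust fit is an added alternative.

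The 8 genes and all lists were chosen with earlier results of these data known. Genes named were the 8 genes, *Emx2*, up to 4 called genes per list by smallest p and up to 2 defining genes that did not pass, family members, noncoding neighbours, and for each tested gene the 2 genes of at least 1 CPM most correlated with it. Other genes were named after their values were seen. The rule also gave 1 gene that is not reported here. Alternatives were scalings, filters, DESeq2 1.42.0, limma-voom (limma 3.58.1), title code or size class as a block or alone, a stricter threshold and each library left out. A planned comparison of protein sequences was not run, because no protein table was used here.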

Additional observations from a re-analysis of the deposited data

Results flagged for a closer look

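In 4 of 15 groups of 5 libraries with any spread, 1 library lay apart from the other 4, by a gap over 0.71 of the group's range. For normally distributed values chance flags about 1 in 20 groups, a rate that need not hold for low counts such as these. *Irx1* in wild-type library 1 was 1.66 CPM against 0.406 CPM in the next (gap 0.784 of the range). *Irx2* in the same library was 2.33 CPM against 0.508 CPM (gap 0.807). *Gbx2* in KO library 3 was 2.96 CPM against 0.917 CPM (gap 0.737). *Irx5* in KO library 4 was 0.0408 CPM against 0.207 CPM in the next lowest (gap 0.883), which is 1 count against 3.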

How the results depend on the processing

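*Irx5* passed in all 24 alternatives that tested it. *Barhl2* kept its direction in 25. The number of genes called, 4074, was 443 in title code 241022 alone, 1414 in code 14922 alone, 558 in the small libraries and 2203 at an adjusted p under 0.01, and 3109 to 4015 with 1 library left out. The count of the 8 genes higher in KO was 1 and became 0 in code 241022 alone, in the small libraries, at an adjusted p under 0.01 and in 3 of the fits without 1 library (range 0 to 1). The count lower in KO was 2 and became 1 with robust dispersion estimation, either block, either code or size class alone, limma-voom, the threshold of 0.01 and without wild-type libraries 1 and 5. It was 1 to 2 with 1 library left out and 0 with at least 1 CPM in 5 libraries, a filter that removes *Irx5*, *Olig3* and *Gbx2*. Signs reversed for *Gbx2* with the size class block (0.40), in the large libraries (1.85), without wild-type library 1 (0.78, in a range of -1.23 to 0.78 with 1 library left out), without wild-type libraries 1 and 5 (1.40) and with limma-voom (0.53). They reversed for *Irx3* in the large libraries (0.15) and without wild-type libraries 1 and 5 (0.042), and for *Olig3* in code 14922 (0.43). Without wild-type libraries 1 and 5 the KO minus wild-type differences were 0.0235 CPM for *Irx1*, 0.0559 for *Irx2* and 0 for *Nkx2-2*. The causes were not tested. Replicate numbers were given in accession order and pair no libraries, so no replicate block was fitted. Title codes hold both genotypes, and with the title code as a block 4067 genes were called, *Irx5* and *Barhl2* passed (adjusted p = 0.00068 and 0.00833) and *Olig3* did not (0.0946). Counts under 10 per library limit what can be seen of *Irx1*, *Irx2*, *Nkx2-2* and, in KO, *Irx5*.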

Other observations

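For each tested gene, the 2 genes most similar in level, among those averaging at least 1 CPM (Pearson r of log2(CPM + 0.5) over 10 libraries) are given as a description, since all 10 values share library and depth. For *Irx5* these were *Ddx19b* (r = 0.99) and *Adamts6* (r = 0.99), and for *Irx3* they were *Mgarp* (r = 0.97) and *Hk2* (r = 0.96). For *Barhl2* they were *Maml3* (r = 0.98) and *Jarid2* (r = 0.95), for *Gbx2* *Ercc4* (r = 0.93) and *Gm8822* (r = 0.92), and for *Olig3* *Lrrc42* (r = 0.94) and *Mre11a* (r = 0.94).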
